A study of Homo sapiens with 29 samples.

Results

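Human genes that lie under very wide peaks of the INO80 chromatin remodelling complex were described across 2 liver cancer cell lines. They are 10 of 38865 coding and long non-coding genes in the annotation: NEAT1, MALAT1, VMP1, SETD1B, IRF2BP2, TNRC18, SLC38A2, ACTB, MIDN and CIRBP. They were chosen by peak width, measured in these same lists: a peak of INO80 or of a partner over them was very wide. The width of their peaks is therefore a description here and was not tested. The study mapped INO80 and its partners by chromatin immunoprecipitation followed by sequencing in HepG2, an established line from a liver tumour of hepatocyte character, and in Huh7, an established line from a hepatocellular carcinoma. In HepG2 the factors were INO80 (3 libraries), MCRS1, RUVBL1 and RUVBL2 (2 libraries each), with YY1 re-processed by the authors from ENCODE reads. In Huh7 they were INO80, MCRS1, RUVBL2 and YY1 (2 libraries each). The series also holds input libraries of both lines and histone H3K27ac and input libraries of HepG2 given EPZ-6438 or DMSO, none of which is used below. The cells of the peak lists carry no treatment in the labels, and they do not say whether libraries of 1 factor were separate cultures.

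The complex moves nucleosomes along DNA with energy from ATP, and INO80 is its motor. MCRS1 is one of its accessory subunits. RUVBL1 and RUVBL2 form a ring of ATPases also found in other complexes, and YY1 is a zinc finger transcription factor that reads a short DNA motif and also joins the complex. Chromatin remodelling complexes of this kind are known at the starts of active genes.

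The authors deposited 1 list of peak positions for each factor and line, 9 lists in all, with no height, score or replicate values. Coordinates are 1-based on hg19. No list held 2 peaks with 500 bp or less between them; the smallest gap was 501 bp in each of the 9 lists. A wide entry therefore cannot be told apart from shorter calls of that spacing joined into 1 entry. The lists held between 3322 peaks (RUVBL2 in Huh7) and 39293 peaks (YY1 in HepG2), and the median width lay between 254 and 666 bp. Sequencing depth is not given for these lists. Windows of the gene and 10 kb on either side were read for the 10 genes in all 9 lists, which makes 90 pairs of gene and list with 483 peaks; a peak on a shared window counts once for each gene. Each of the 10 genes had a peak in each list. In HepG2 the share of all genes with one was 57.4% for INO80, 53.4% for MCRS1, 20.1% for RUVBL1, 37.8% for RUVBL2 and 65.4% for YY1, and in Huh7 it was 46.4% for INO80, 23.4% for MCRS1, 14.6% for RUVBL2 and 51.4% for YY1. MIDN and CIRBP lie 240 bp apart and their windows share 19760 bp, so they share their widest peaks and are not independent of each other. NEAT1 and MALAT1 are neighbours 52099 bp apart on chromosome 11, and TNRC18 and ACTB lie 100994 bp apart on chromosome 7, with no shared window. Windows of all 12 hepatocyte marker genes held an INO80 peak in HepG2 and those of 8 of 12 did in Huh7, against 4 of 8 neuron markers in HepG2 and 5 of 8 in Huh7, and 5 of 8 blood markers in HepG2 and 4 of 8 in Huh7.

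The sequences below are stretches lying under a peak in all 9 lists, that is, under INO80 and every mapped partner in both lines. They are shown because they are points where peaks of all the factors and both lines coincide. Not all of these peaks are wide. The TNRC18 stretch is a RUVBL2 peak of 152 bp in Huh7, and the SETD1B stretch lies in an MCRS1 peak of 543 bp in Huh7. Each is read 5′ to 3′ on the strand of its gene from the GRCh37 genome, outside annotated untranslated regions, and is at most 200 bases long. Capitals mark CpG dinucleotides.
NEAT1 (chr11:65190270-65190469, plus strand, bases 1 to 200 past the first base of the long transcript): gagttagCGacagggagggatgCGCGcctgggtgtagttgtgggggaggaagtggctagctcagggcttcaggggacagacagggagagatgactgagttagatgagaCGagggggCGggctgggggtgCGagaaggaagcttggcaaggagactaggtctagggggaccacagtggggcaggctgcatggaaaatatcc
MALAT1 (chr11:65265839-65266038, plus strand, within the transcript): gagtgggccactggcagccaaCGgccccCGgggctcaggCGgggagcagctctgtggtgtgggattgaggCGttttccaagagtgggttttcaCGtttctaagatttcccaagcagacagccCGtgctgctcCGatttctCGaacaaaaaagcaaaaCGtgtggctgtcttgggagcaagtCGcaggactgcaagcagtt
VMP1 (chr17:57915398-57915597, plus strand, near the end of the gene): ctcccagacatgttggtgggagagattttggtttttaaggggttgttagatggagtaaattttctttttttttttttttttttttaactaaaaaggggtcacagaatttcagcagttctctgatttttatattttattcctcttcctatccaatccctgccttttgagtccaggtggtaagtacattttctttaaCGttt
SETD1B (chr12:122239108-122239307, plus strand, upstream of the start): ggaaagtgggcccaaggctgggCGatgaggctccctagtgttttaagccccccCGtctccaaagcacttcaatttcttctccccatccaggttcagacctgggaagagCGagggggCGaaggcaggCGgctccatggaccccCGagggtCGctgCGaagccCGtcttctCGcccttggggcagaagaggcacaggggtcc
SLC38A2 (chr12:46765668-46765867, minus strand, just inside the gene): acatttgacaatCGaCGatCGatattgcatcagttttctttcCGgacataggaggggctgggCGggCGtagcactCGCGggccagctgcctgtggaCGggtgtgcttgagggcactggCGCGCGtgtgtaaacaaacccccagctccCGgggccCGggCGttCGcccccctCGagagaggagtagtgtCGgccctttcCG
TNRC18 (chr7:5465372-5465523, minus strand, upstream of the canonical start): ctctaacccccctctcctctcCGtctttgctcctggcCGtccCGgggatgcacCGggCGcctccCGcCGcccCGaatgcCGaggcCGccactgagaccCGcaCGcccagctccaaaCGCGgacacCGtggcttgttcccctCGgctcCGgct
MIDN and CIRBP (chr19:1259195-1259382, plus strand, between the end of MIDN and the annotated start of CIRBP): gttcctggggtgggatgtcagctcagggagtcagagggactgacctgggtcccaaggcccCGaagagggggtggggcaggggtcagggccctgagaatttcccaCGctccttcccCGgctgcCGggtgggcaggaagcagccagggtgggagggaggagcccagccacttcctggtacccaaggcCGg
CpG numbered 19 in the SLC38A2 stretch and 17 in the shorter TNRC18 stretch, against 1 in the VMP1 stretch. G and C made up 33.5% of the VMP1 bases and 71.7% of the TNRC18 bases. Stretches of ACTB and IRF2BP2 are not printed. Over the whole of the longest such stretch, untranslated regions included, CpG numbered 13.5 per kb at VMP1 and 15.8 per kb at ACTB. It numbered 24.6 per kb at MIDN and CIRBP, 85.7 at SLC38A2 and 111.8 at TNRC18, with the other genes in between. A shared point of occupancy was thus rich in CpG at some of these genes and poor in it at others.

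The bases under a peak in all 9 lists added up to very different lengths. MIDN had 1341 bp and CIRBP 1756 bp of such bases, MALAT1 1427 bp, SLC38A2 1272 bp and NEAT1 1010 bp. VMP1 had 752 bp and SETD1B 524 bp, while ACTB had 217 bp, TNRC18 152 bp and IRF2BP2 144 bp. The longest single stretch was 1427 bp at MALAT1, inside the transcript from position 114 to 1540. Positions count from 0 at the first base of the canonical transcript, and negative ones are upstream. At SLC38A2 it ran for 1272 bp from position 41, and at NEAT1 it ran for 826 bp from -312 to 513 and so spanned the start.

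A peak at or above the 99th percentile of width was found at 10 of 10 genes for INO80 in HepG2 (1.51% of all genes) and for MCRS1 in HepG2 (1.58%). RUVBL2 had one at 9 genes in HepG2 (0.934%), RUVBL1 at 5 (0.381%) and YY1 at 2 (2.39%), which were TNRC18 and IRF2BP2. In Huh7 the count was 8 for INO80 (1.06%), 7 for MCRS1 (0.463%), 4 for RUVBL2 (0.288%) and 8 for YY1 (1.75%). Width chose these genes, so nothing is read from the counts against those shares. Over the 90 pairs of gene and list, 63 had such a peak and 50 had a peak of 5000 bp or more. SLC38A2 was below the percentile in 4 of the 4 lists of Huh7, IRF2BP2 in 3, and SETD1B and VMP1 in 2 each.

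**Figure D1:**
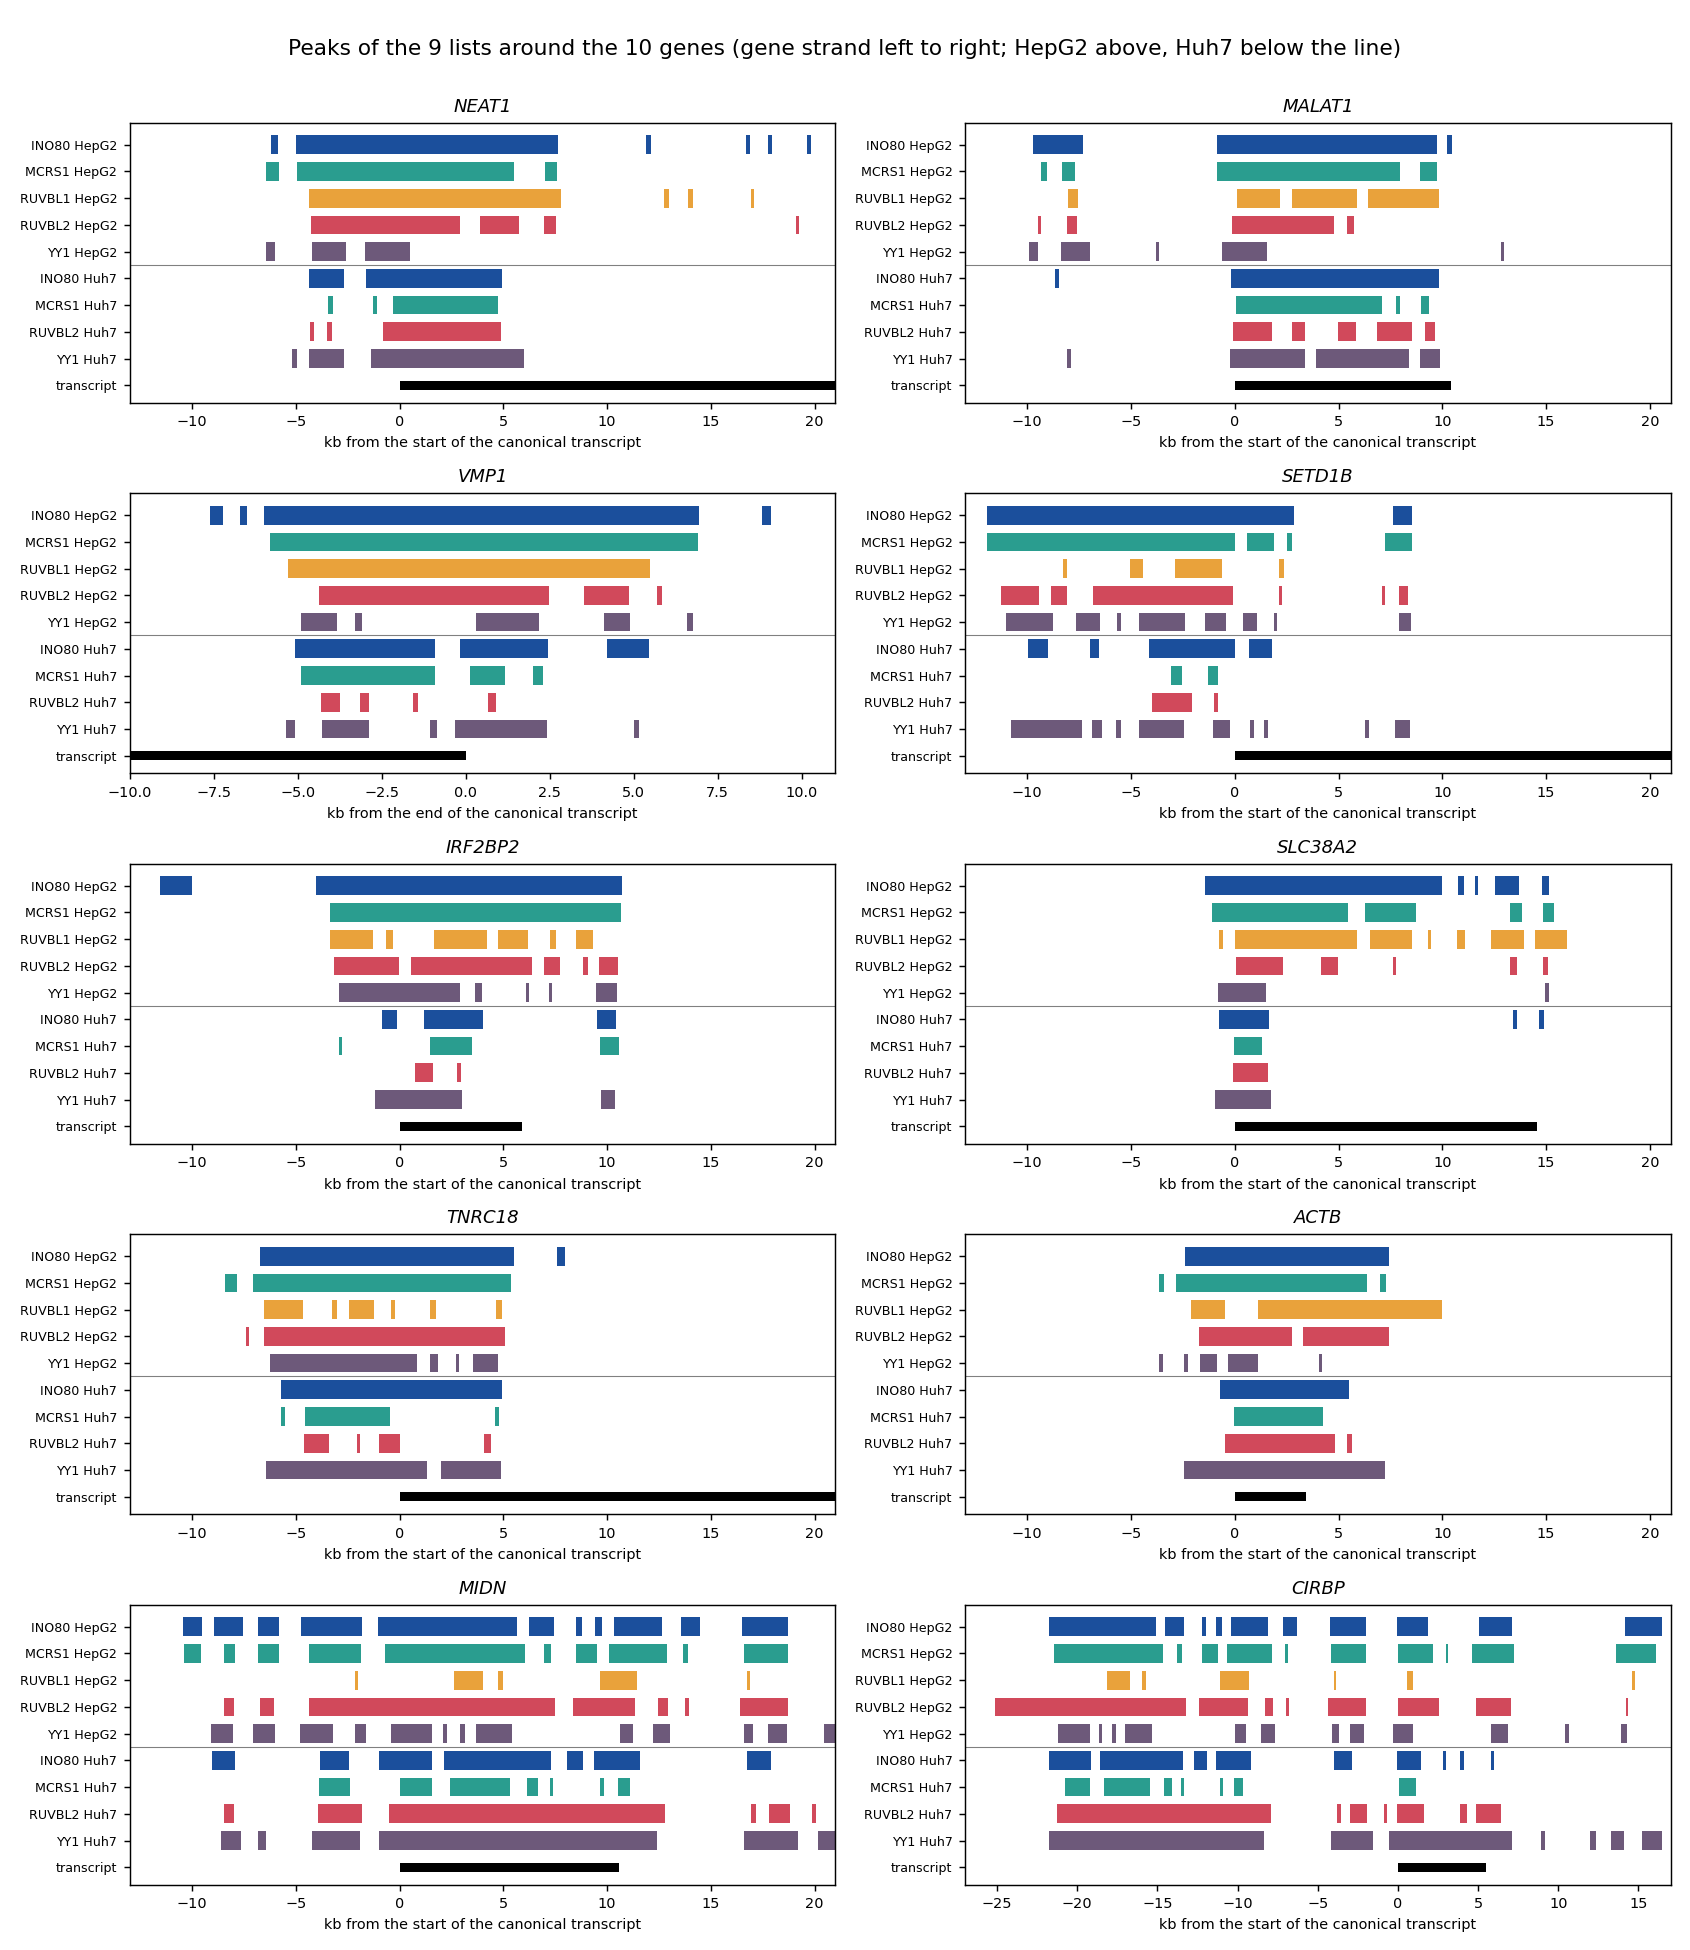
Deposited peaks around the 10 genes, as bars by distance in kb from the start of the canonical transcript along the gene's strand (for VMP1, from its end), with HepG2 lists above and Huh7 lists below the line and the transcript in black. The INO80 peak in HepG2 runs from upstream of the start deep into NEAT1, MALAT1, SLC38A2 and ACTB, spans the end of VMP1, and lies mostly upstream at SETD1B.

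NEAT1 and MALAT1 are nuclear long non-coding RNAs: NEAT1 is the scaffold of paraspeckles and MALAT1 gathers in nuclear speckles. At NEAT1 (chromosome 11, 65190245 to 65213011, plus strand) the widest peak in HepG2 was 12595 bp for INO80, 12162 bp for RUVBL1, 10414 bp for MCRS1, 7174 bp for RUVBL2 and 2167 bp for YY1. In Huh7 it was 6572 bp for INO80, 5056 bp for MCRS1, 5699 bp for RUVBL2 and 7378 bp for YY1. The RUVBL1 peak was the widest of the 5518 peaks in its list, and YY1 was the narrowest of the factors in HepG2 but the widest in Huh7. NEAT1 makes a short and a long transcript from 1 start. The short form of 3684 bp was covered over its whole length in 7 of the 9 lists, by 80% for RUVBL2 in HepG2 and by 14.6% for YY1 in HepG2. Of the part of the long form beyond it, INO80 covered 25% in HepG2 and 6.76% in Huh7, so most of the part particular to the long form lay outside the peaks.

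At MALAT1 (chromosome 11, 65265111 to 65275544, plus strand) the widest INO80 peak was 10583 bp in HepG2, against 10026 bp in Huh7, the smallest difference among the 10 genes for INO80. The HepG2 peak ran from -841 to 9741 and that of Huh7 from -206 to 9819. The HepG2 peak covered 93.4% of the canonical transcript in HepG2. MCRS1 peaks were 8814 bp in HepG2 and 7039 bp in Huh7, the second being the widest of its list. RUVBL2 reached 4923 bp in HepG2 and 1909 bp in Huh7. RUVBL1, mapped in HepG2, had 3 peaks over the INO80 peak that together covered 80.1% of it, and the widest of them ended 123 bp past its downstream edge. YY1 covered 14.8% of the transcript in HepG2 and 85.2% in Huh7. The antisense gene TALAM1 overlaps these INO80 peaks, and the peaks carry no strand.

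VMP1 encodes a membrane protein of the endoplasmic reticulum needed for autophagy, and the hairpin of the microRNA miR-21 lies at the end of the gene. The widest peaks at VMP1 (chromosome 17, 57784553 to 57919616, plus strand) lay over or near that end, not over its start. The INO80 peak of 12947 bp in HepG2 (chr17:57913612-57926558) began 128597 bp past the start and held the MIR21 hairpin (chr17:57918627-57918698), with 5015 bp before it and 7860 bp after it. MCRS1 (12764 bp), RUVBL1 (10789 bp) and RUVBL2 (6841 bp) also held the hairpin in HepG2. YY1 did not: its nearest edge in HepG2 was 1224 bp away. In Huh7 the INO80 peak of 4192 bp ended 13 bp past the hairpin, the MCRS1 peak of 3983 bp ended 1 base short of its end, the nearest RUVBL2 edge was 429 bp away, and a YY1 peak of 210 bp held it. At the start of VMP1 the INO80 peak was 1208 bp in HepG2 and 1725 bp in Huh7. The mature miRNA that the hairpin gives, with its seed (bases 2 to 8) in capitals, is shown because the widest peaks lay around its hairpin and not on the host gene's promoter (RefSeq, GRCh38.p14).
hsa-miR-21-5p: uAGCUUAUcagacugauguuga

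SETD1B, IRF2BP2 and TNRC18 act on chromatin or transcription. SETD1B is the catalytic subunit of a complex that methylates histone H3 lysine 4. At SETD1B (chromosome 12, 122241915 to 122270562, plus strand) the INO80 peak in HepG2 was 14809 bp and ran from -11939 to 2869, so 19.4% of it lay downstream of the start. It also held the starts of the coding gene RHOF and of the non-coding gene LINC01089, so it cannot be given to SETD1B alone. MCRS1 (11938 bp) ended at -11 and RUVBL2 (6768 bp) at -63 in HepG2. The INO80 peak of Huh7 (4124 bp) ended at -13, so 3 of these peaks ended just upstream of the SETD1B start. MCRS1 reached 543 bp in Huh7. YY1 was present as 7 peaks under the INO80 peak in HepG2, which covered 51.5% of it.

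IRF2BP2 encodes a transcriptional corepressor. At IRF2BP2 (chromosome 1, 234740015 to 234745924, minus strand) the INO80 peak of 14721 bp and the MCRS1 peak of 14026 bp in HepG2 covered the whole gene. The INO80 peak went on for 4802 bp past its end. RUVBL2 reached 5815 bp, YY1 5845 bp and RUVBL1 2580 bp in HepG2. In Huh7 the widest peaks were 2825 bp for INO80, 2043 bp for MCRS1, 882 bp for RUVBL2 and 4173 bp for YY1. The INO80 peaks of Huh7 covered 47.8% of the transcript.

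TNRC18 encodes a chromatin protein that reads a silencing mark on histone H3. At TNRC18 (chromosome 7, 5346421 to 5465045, minus strand) the peaks of INO80 (12272 bp), MCRS1 (12446 bp) and RUVBL2 (11646 bp) in HepG2 had nearly the same edges. They began at -6741, -7060 and -6556 and ended at 5530, 5385 and 5089. YY1 had a peak of 7080 bp in HepG2, the second widest of its list, while RUVBL1 was broken into 6 peaks that covered 33.1% of the INO80 peak. The INO80 peak of Huh7, 10666 bp, was the widest of its list, and lay within the HepG2 peak. YY1 reached 7794 bp, MCRS1 4088 bp and RUVBL2 1206 bp in Huh7. The first bases of several non-coding genes lie under the same peaks.

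SLC38A2 encodes a sodium-coupled transporter of neutral amino acids. At SLC38A2 (chromosome 12, 46751971 to 46766556, minus strand) the INO80 peak was 11464 bp in HepG2 and 2418 bp in Huh7. MCRS1 reached 6536 bp in HepG2 and 1330 bp in Huh7. The YY1 peak was about as wide in each line, at 2306 bp in HepG2 and 2689 bp in Huh7, and RUVBL2 was 2275 bp in HepG2 and 1688 bp in Huh7. RUVBL1 had a peak of 5879 bp in HepG2 that began at position 2. The extension over the gene was thus seen for INO80, MCRS1 and RUVBL1 in HepG2, while the widest peaks of Huh7 lay at the start and were 1330 to 2689 bp. The antisense gene SLC38A2-AS1 starts under the same peaks.

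ACTB encodes cytoplasmic beta-actin. Its annotated gene (chromosome 7, 5566040 to 5603533, minus strand) is much longer than the canonical transcript of 3454 bp, which starts at 5570232. INO80 covered that transcript fully with a peak of 9818 bp in HepG2 and of 6216 bp in Huh7. MCRS1 reached 9226 bp in HepG2 and 4298 bp in Huh7, and RUVBL2 4497 bp in HepG2 and 5291 bp in Huh7. RUVBL1 had a peak of 8872 bp in HepG2 that began at position 1131 and ended at 10002, past the end of the transcript. YY1 stood out for the change between lines: its widest peak was 1455 bp in HepG2 and 9663 bp in Huh7, and it covered 32.1% of the transcript in HepG2 and all of it in Huh7.

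MIDN encodes midnolin, which brings nuclear proteins to the proteasome, and CIRBP encodes a cold-inducible RNA-binding protein. At MIDN (chromosome 19, 1248552 to 1259142, plus strand) the widest peak in HepG2 was 6677 bp for INO80, 6774 bp for MCRS1, 11879 bp for RUVBL2, 1767 bp for RUVBL1 and 1970 bp for YY1. In Huh7 it was 5175 bp for INO80, 2862 bp for MCRS1, 13328 bp for RUVBL2 and 13392 bp for YY1. The RUVBL2 peak was the widest of the 3322 in its list and ran from -519 to 12808, and the YY1 peak ran from -990 to 12401, so each covered the whole of MIDN. These peaks are also counted for CIRBP (chromosome 19, 1259383 to 1274879, plus strand), whose annotated gene begins 240 bp past MIDN. Its canonical transcript begins at 1269331, and the 2 wide peaks ended at -7941 and -8348 relative to that start. These 2 peaks thus also reach a window of 10 kb about the canonical transcript, which the widest INO80 and MCRS1 peaks do not. At the canonical start itself the peaks were 1938 bp for INO80, 2187 bp for MCRS1, 2613 bp for RUVBL2 and 1266 bp for YY1 in HepG2. In Huh7 they were 1466 bp for INO80, 1072 bp for MCRS1, 1639 bp for RUVBL2 and 7686 bp for YY1. That YY1 peak covered the whole canonical CIRBP transcript, and the peaks of the other lists covered at most 58.1% of it.

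Most of these genes had a peak near their start in every list. A peak within 1 kb of the canonical start was present at 10 of 10 genes for INO80 in HepG2 (42.8% of all genes) and in Huh7 (31.7%). MCRS1 had one at 10 genes in HepG2 (39.2%) and at 9 in Huh7 (14.3%), and RUVBL2 at 10 in HepG2 (25.7%) and 9 in Huh7 (8.21%). YY1 had one at 10 in HepG2 (42.9%) and 10 in Huh7 (34.3%), and RUVBL1 at 9 (11%). The first base itself was under a RUVBL1 peak at 1 gene, NEAT1, and under an INO80 peak at 10 genes in HepG2 and 8 in Huh7. Over all genes the share was 3.21% for RUVBL1 in HepG2, and for INO80 32.2% in HepG2 and 16.6% in Huh7. Very wide peaks chose these genes, and many of the peaks near a start are those wide peaks. Nothing is therefore read from these counts against the shares. Where the widest INO80 peak in HepG2 held the start, as it did at 8 genes, the share lying downstream ranged from 19.4% at SETD1B to 92.1% at MALAT1 and passed 50% at 6. Among the 169 INO80 peaks of HepG2 at or above the 99th percentile that held 1 coding start, the median downstream share was 67.1%, and the middle 50% lay between 51.3% and 82.2%.

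**Figure D2:**
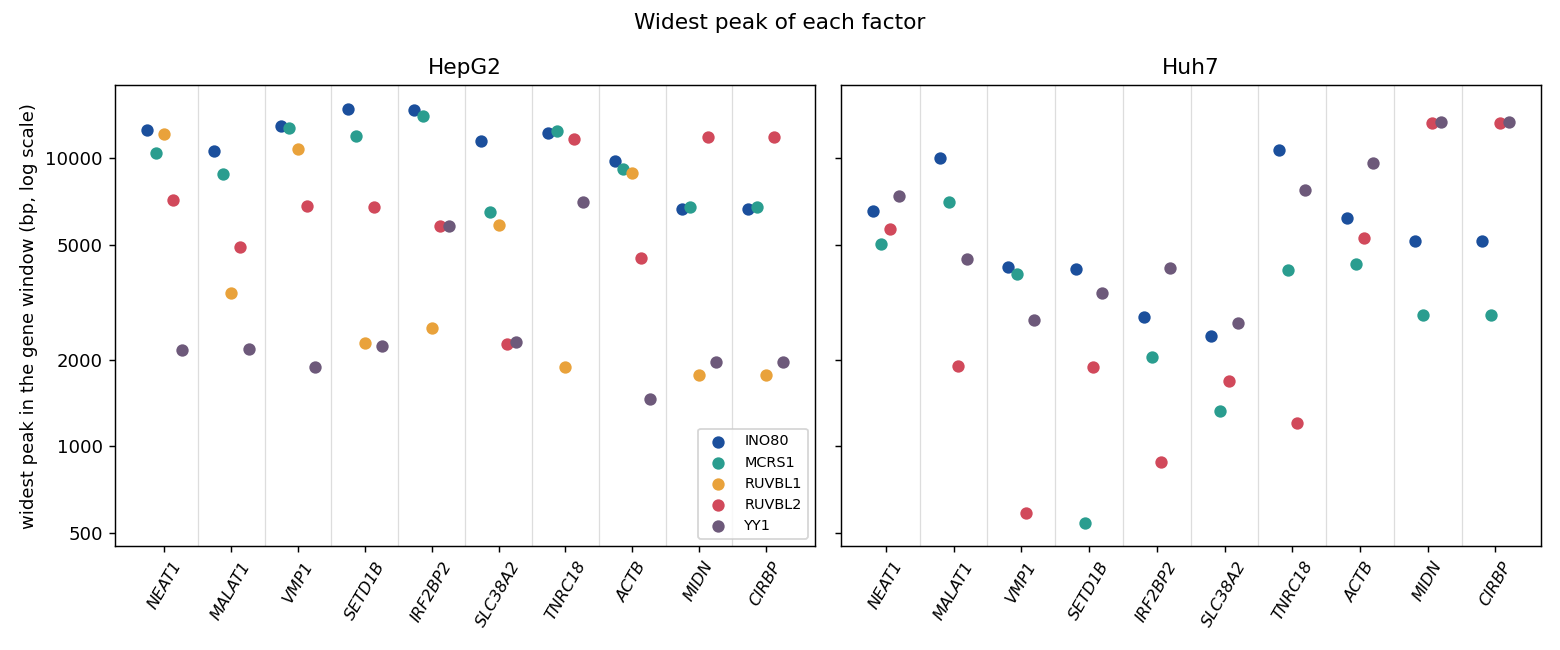
Widest peak of each factor in the window of each gene, in bp on a log axis, with HepG2 on the left and Huh7 on the right and 1 point for each factor. INO80 is the highest point at 7 of 10 genes in HepG2, and YY1 is the highest at 6 of 10 in Huh7.

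By widest peak, INO80 was most often first in HepG2 and YY1 in Huh7. In HepG2 INO80 had the widest peak at 7 of 10 genes (41.7% of genes with an INO80 peak), MCRS1 at TNRC18, and RUVBL2 at MIDN and CIRBP. The gap between first and second was small at VMP1, where INO80 was 1.01 times as wide as MCRS1, and at TNRC18, where MCRS1 was 1.01 times as wide as INO80. It was largest at SLC38A2, where INO80 was 1.75 times as wide as MCRS1, and at MIDN and CIRBP, where RUVBL2 was 1.75 times as wide as MCRS1. In Huh7 YY1 was first at 6 genes (48.3% of genes with an INO80 peak) and INO80 at 4 (49.6% of the same genes), namely MALAT1, VMP1, SETD1B and TNRC18. This order in Huh7 rests on the spacing of peaks: with peaks up to 1000 bp apart joined, INO80 was first at 1 gene. The counts of 6 and 4 were near the shares beside them. The width of a peak of INO80 or of a partner chose these genes, so nothing is read from the 7 in HepG2 against its share. MIDN and CIRBP each count in these numbers. At MIDN and CIRBP, which share these peaks, YY1 led RUVBL2 by little in Huh7, at 13392 against 13328 bp. The YY1 reads of HepG2 come from ENCODE, so line and source cannot be told apart for the place of YY1.

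The partners filled the widest INO80 peak to different degrees. In HepG2 MCRS1 covered a median of 93.8% of it over the 10 genes (78.3% to 98.8%), against a median of 87.1% over the 237 INO80 peaks at or above the 99th percentile of width and 77.7% over all INO80 peaks. RUVBL2 covered a median of 75.2%, against 53.3% and 0%, and RUVBL1 61.3%, against 17.5% and 0%. YY1 covered 41.4%, against 43.6% and 55.6%. It lay as a median of 4 separate peaks under the INO80 peak, against a median of 2 under the INO80 peaks at or above the percentile. The INO80 peak that MIDN and CIRBP share counts for each of them in the medians over the genes. In HepG2 YY1 covered 62.4% of it and RUVBL1 24.7%. Counted for 1 gene only, it would leave a lower median for YY1 and a higher one for RUVBL1. In Huh7 YY1 covered a median of 94.8%, against 74.1% over the 154 INO80 peaks at or above the percentile and 63.2% over all. MCRS1 covered 68%, against 35.8% and 0%, and RUVBL2 62.6%, against 31.2% and 0%. The lists of the partners differ in length, and the part of that difference in these shares was not tested. The width of a peak of INO80 or of a partner chose these genes, so nothing is read from these shares against the others. In Huh7 the widest INO80 peaks at IRF2BP2 (2825 bp) and SLC38A2 (2418 bp) were below the percentile.

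**Figure D3:**
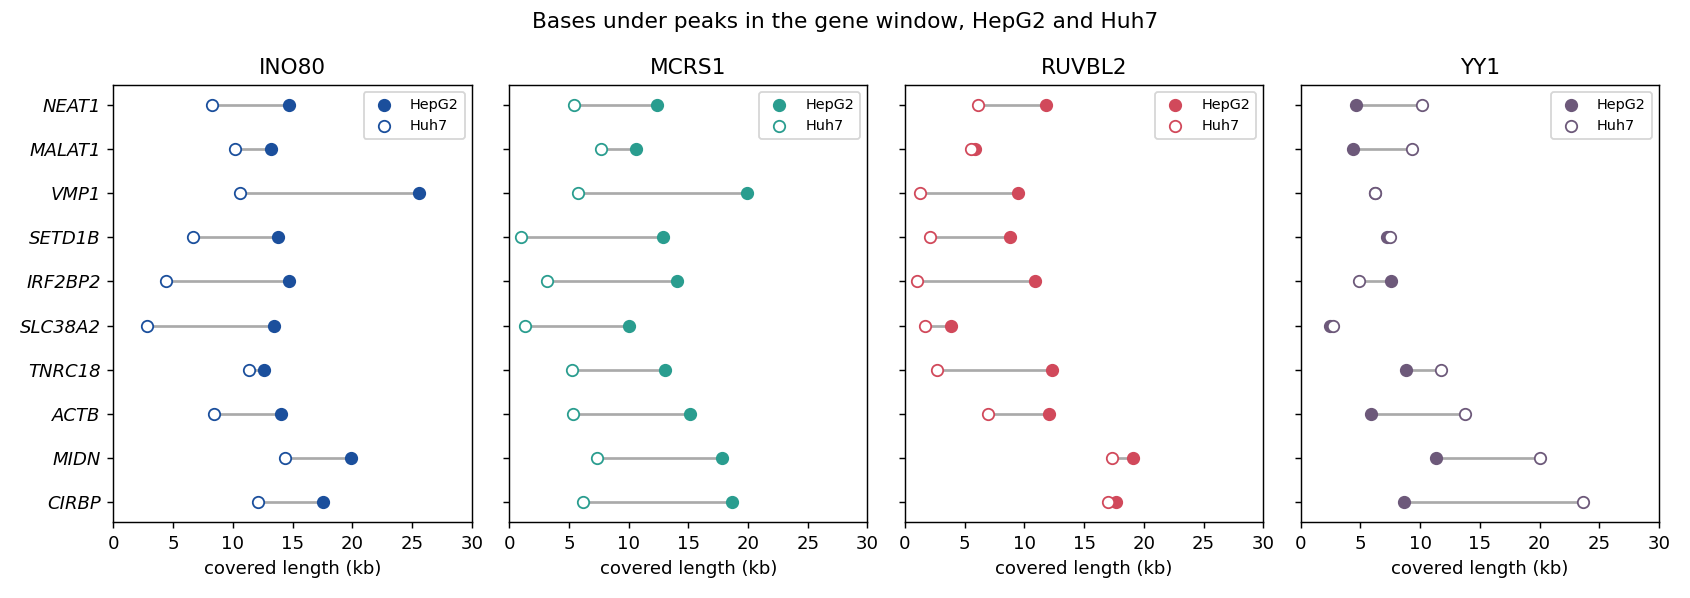
Bases under peaks in the window of each gene, in kb, for the 4 factors mapped in both lines, with HepG2 as filled and Huh7 as open points joined by a line. HepG2 lies to the right of Huh7 at 10 of 10 genes for INO80, MCRS1 and RUVBL2 and at 2 of 10 for YY1.

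Between the lines, INO80 covered more bases in HepG2 than in Huh7 at 10 of 10 genes (82.5% of genes with a peak in either line). The median log2 ratio of HepG2 over Huh7 was 0.79, against 0.94 over all genes with a peak in both. MCRS1 gave 10 of 10 (96.3%) with a median of 1.55 against 2.28, and RUVBL2 gave 10 of 10 (91.8%) with 1.08 against 1.42. These counts were near the share over all genes. YY1 covered more in HepG2 at 2 of 10 genes (76.4%), with a median of -0.61 at these genes and 0.57 over all genes with a peak in both lines. The 2 genes were IRF2BP2, at 7533 bp in HepG2 and 4859 bp in Huh7, and VMP1, at 6255 bp in HepG2 and 6235 bp in Huh7. The largest contrast the other way was at CIRBP, with 8660 bp of YY1 in HepG2 and 23653 bp in Huh7. CIRBP shares its widest YY1 peak of Huh7, 13392 bp, with MIDN, and both genes count here. Very wide peaks in these same lists chose the genes. Nothing is therefore read from the counts and medians at these genes against those over all genes. With equal numbers of the widest peaks taken from each line, the count longer in HepG2 was 10 for INO80, 10 for MCRS1, 7 for RUVBL2 and 1 for YY1. The YY1 reads of HepG2 come from ENCODE, so line and source cannot be told apart for YY1. With 1 list for each factor and line there is no replicate error for any of these differences.

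The contrast was uneven among the genes. For INO80 the ratio of covered bases was 4.71 at SLC38A2 and 3.33 at IRF2BP2 but 1.12 at TNRC18 and 1.3 at MALAT1. For MCRS1 it reached 12.7 at SETD1B, where 12858 bp were covered in HepG2 and 1014 bp in Huh7. For RUVBL2 it was 10.4 at IRF2BP2 and 7.57 at VMP1, and 1.06 at MALAT1 and 1.04 at CIRBP.

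**Figure D4:**
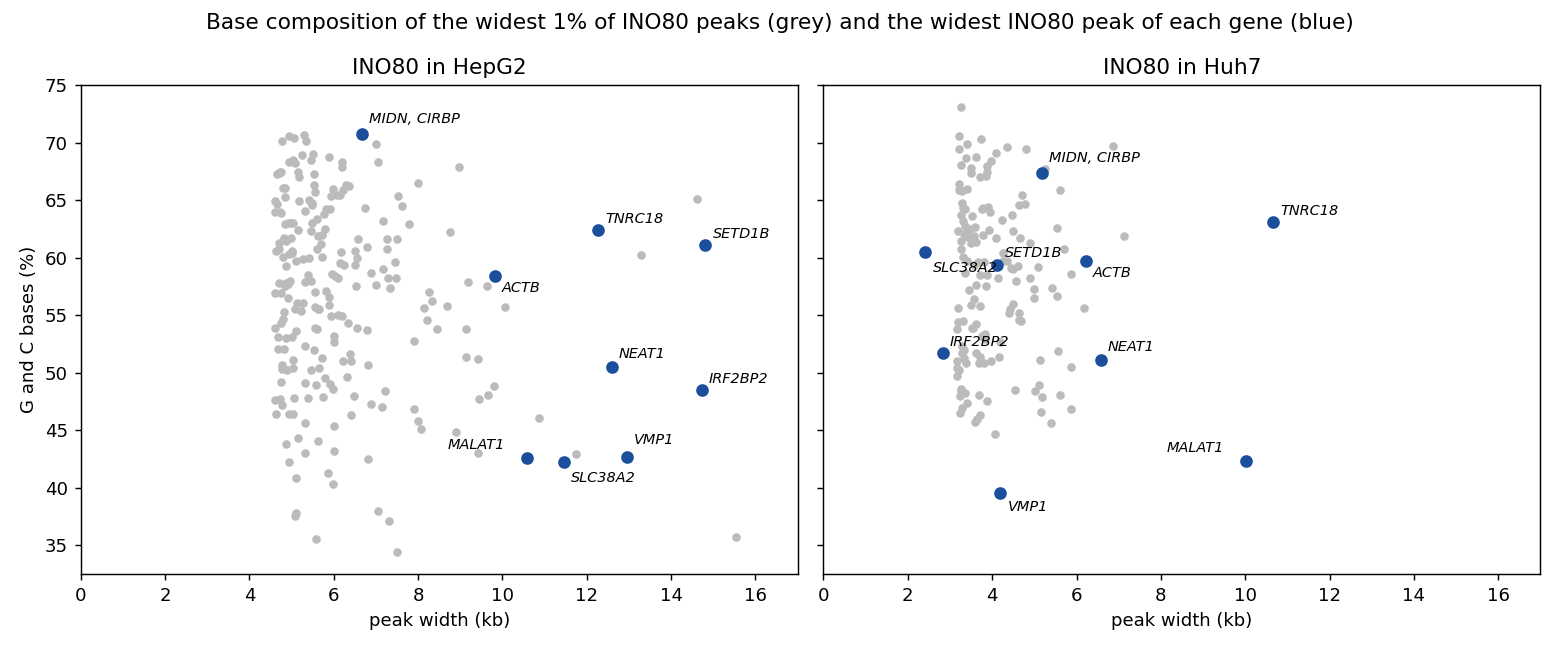
Percentage of G and C bases against width in kb for INO80 peaks at or above the 99th percentile of width (grey) and for the widest INO80 peak of each gene (blue), in HepG2 on the left and Huh7 on the right. In HepG2 the blue points spread from 42.2% at SLC38A2 to 70.8% at MIDN and CIRBP.

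Base composition, which the choice of genes did not use, had no single value. G and C made up 42.2% of the widest INO80 peak of HepG2 at SLC38A2, 42.6% at MALAT1, 42.7% at VMP1, 48.5% at IRF2BP2 and 50.5% at NEAT1. The value was 58.4% at ACTB, 61.1% at SETD1B, 62.4% at TNRC18 and 70.8% at MIDN and CIRBP. The median over the genes was 54.5%, against 57.6% over the 237 peaks at or above the percentile and 62.0% over all INO80 peaks of HepG2. In Huh7 the median over the genes was 59.5%, against 58.9% over the 154 peaks at or above the percentile and 62.3% over all INO80 peaks. The peak that MIDN and CIRBP share counts for each of them in all values over the genes. Counted for 1 gene only, it would leave a lower median of G and C in HepG2. The shorter peak of Huh7 at SLC38A2, 2418 bp, held 60.5% G and C. In HepG2 CpG dinucleotides numbered a median of 41.0 per kb at the genes, against 50.5 and 61.7. At VMP1 there were 13.4 per kb and at MIDN 80.7 per kb. The motif CCATNTT, the core that YY1 reads, was searched on both strands. It occurred 0.62 times per kb over the widest INO80 peaks of the 10 genes in HepG2, 0.67 times per kb over the peaks at or above the percentile and 0.60 times per kb over all INO80 peaks. The looser motif CCATNNT, which includes each CCATNTT, had a median of 1.55 per kb at the genes and 1.56 per kb at the peaks above the percentile. In RefSeq promoters (GRCh38.p14) of 7 of the 10 genes, 1 of 10 promoters held CCATNTT, a promoter of MALAT1, against 15.6% of 35116 promoters.

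The 10 genes are not the full set of genes under such peaks. In the INO80 list of HepG2 the widest peak, 15541 bp, lay over ALB, the albumin gene, and a peak over ASPSCR1 (13276 bp) was wider than that at VMP1. In Huh7 peaks over LHX4 (7128 bp) and PDGFA (6856 bp) were wider than that at NEAT1. The lowest of the genes by rank was the pair MIDN and CIRBP in HepG2, at 65 of 23665 INO80 peaks. By the mean percentile of covered bases over the 9 lists, the genes most like them outside their windows were GSE1 (99.86), ARID3A (99.84), the non-coding genes ENSG00000283360 (99.82) and ENSG00000290792 (99.64), and NEK8 (99.79). The members themselves ranged from 96.86 at SLC38A2 to 99.91 at MIDN and CIRBP. Covered bases can grow with the length of the window, and GSE1 is 506680 bp long. In HepG2 the widest INO80 peaks at ARID3A (3601 bp), NEK8 (4171 bp) and ENSG00000290792 (4213 bp) were below the 99th percentile. Those at GSE1 (5072 bp) and ENSG00000283360 (5530 bp) were above it.

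Related genes were read for comparison. Of the 11 paralogs of the 10 genes, 2 had an INO80 peak at or above the 99th percentile in HepG2, ACTG1 and BAHCC1, and 1 did in Huh7, SLC38A1. The actin gene ACTG1, with peaks up to 7494 bp for INO80, 5080 bp for MCRS1, 5381 bp for RUVBL1, 5746 bp for RUVBL2 and 3936 bp for YY1 in HepG2, was the most like its relative ACTB. BAHCC1, a relative of TNRC18, had an INO80 peak of 6580 bp in HepG2 and of 2413 bp in Huh7. SETD1A, the closest relative of SETD1B, reached 2149 bp in HepG2 and 943 bp in Huh7, and SLC38A4, a relative of SLC38A2, had no INO80 peak in HepG2 and one of 919 bp in Huh7. RBM3, the cold-inducible relative of CIRBP, reached 596 bp in HepG2 and 1515 bp in Huh7. Wide peaks were therefore not shared by all members of these families.

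Over the 9 lists, the paralogs had 12 of 99 pairs of gene and list at or above the percentile, where the share over all genes was 0.288% to 2.39% of genes in a list. The count was 1 of 72 for the SET1 complex and 1 of 90 for paraspeckle proteins. It was 0 of 72 for autophagy genes of the endoplasmic reticulum. SETD1A, SLC38A1, ACTG1 and TMEM41B each stand in more than 1 of these lists. It was 17 of 99 for immediate early genes, with EGR1 reaching 6607 bp for RUVBL2 in Huh7, and 14 of 90 for the amino acid response, with SLC7A5 reaching 9183 bp for INO80 in HepG2. Cytoskeleton genes gave 15 of 72, and abundant long non-coding RNAs 14 of 81, with SNHG3 reaching 11029 bp for RUVBL1 in HepG2 and 5868 bp for INO80 in Huh7. Hepatocyte markers gave 27 of 108, neuron markers 1 of 72 and blood markers 0 of 72. Most of the hepatocyte pairs were in HepG2, at 5 of 12 genes for INO80, 9 for MCRS1, 3 for RUVBL1, 3 for RUVBL2 and 5 for YY1. In Huh7 the count was 0 of 12 for INO80, 1 for MCRS1, 0 for RUVBL2 and 1 for YY1. A peak that reaches the windows of several genes counts for each of them. The widest YY1 peak in HepG2 was 4371 bp at both APOA1 and APOC3, so the pairs are not all independent.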

How the data were processed

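The authors deposited, for each factor and cell line, a filtered list of peak positions in 6 columns that hold no score or height. Per the submitters' processing notes, Bowtie2, SAMtools, deepTools, MACS2 and bedtools are named beside 2 builds, hg19 and dm3, without versions. For the pooling of libraries before peak calling, the step was not given in the sources used here. The list of YY1 in HepG2 was made from ENCODE reads by the same steps, per the series description, and has no sample record. Groups came from library titles. A peak counted for a gene when it shared at least 1 bp with the gene and 10 kb either side, in GENCODE release 44 lifted to GRCh37, the sequence of hg19. Width, rank, covered bases, order and overlap were computed in Python 3.11.15 with NumPy 2.4.6, and figures with matplotlib 3.10.9; the interval code was tested on simulated data. A peak was called wide at or above the 99th percentile of its list. Alternatives changed the window, the joining of nearby peaks, the percentile, the list length and the overlap. The 10 genes, the 8 gene lists, the 3 marker lists and the rules for naming genes were chosen with earlier results of these data known. Genes named outside the 10 were the widest of those lists, the 5 most alike by covered bases, and neighbours under the peaks. Others, such as ALB, ASPSCR1, LHX4, PDGFA, SETD1A and RBM3, were named after their values were seen. There were 0 unmapped columns of per-sample values. Fly spike-in tags, input and histone libraries were not used here. No test was run.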

Additional observations from a re-analysis of the deposited data

How the results depend on the processing

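Of 21 alternatives to the 8 summary values, 20 kept their count within 1.5 times. The exception was the order of factors in Huh7: INO80 had the widest peak at 4 genes as deposited and at 1 with peaks up to 1000 bp apart joined, an alternative chosen after seeing the data. The cause was not tested. Windows set by the canonical transcript, also chosen after seeing the data, gave 58 of 90 pairs with a wide peak, against 63. They took from CIRBP its shared INO80 peak of 6677 bp in HepG2 and left one of 2354 bp. With peaks up to 1000 bp apart joined, the widest YY1 peak at SETD1B in HepG2 was 9692 bp, against 2235 bp as deposited. Joining up to 500 bp changed nothing, since no gap is that short.

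No paired analysis was possible because each factor and line has 1 list with no values per replicate. Leaving out replicates was not run for the same reason. Depth and peak height are unknown, so width cannot be told apart from depth or from the joining of nearby calls.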
